A study of Danio rerio with 6 samples.

Results

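The collagen genes of the adult zebrafish kidney were examined in runx1 null fish and in wild type fish. They were taken by a rule on the gene name, set with earlier results of these data known. It took every row of the count tables whose symbol begins with col, a number and a, in either letter case. The rule found 56 genes of 32266. By collagen type number they fall into 15 fibrillar genes, 12 genes of basement membranes, 13 of networks and beaded filaments, 12 of the fibril-associated group called FACIT, and 4 transmembrane genes.

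Collagens are proteins of the extracellular matrix, each built from polypeptide chains wound into a triple helix. Fibrillar collagens form the rope-like fibres of connective tissue, whereas type IV collagen forms the sheet beneath epithelia, around vessels and between podocytes and endothelium in the glomerulus. Type VI makes beaded filaments around stromal cells, and FACIT collagens sit on the surface of fibrils. In fish the kidney is also the site of adult blood formation, so much of its RNA comes from blood cells, and collagen RNA comes mainly from stroma, vessels and epithelia between them.

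The mutant fish were homozygous for del25 (hg97), an allele of the blood transcription factor gene runx1, and the controls were wild type. Fish of both genotypes were of strain EK and about 2.5 months old, and each library was made from a pool of 3 dissected kidneys, with 3 pools per genotype. The labels do not say whether the allele removes the protein, do not give the sex of the fish, and do not say whether pools came from separate clutches. The p-values therefore measure only the spread between these pools.

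The runx1 null libraries held 16147770 to 27480381 expected counts and the wild type libraries 23821763 to 30577328. Levels are CPM, counts set against the library total and scaled by TMM, a factor that corrects for libraries dominated by a few genes. The runx1 transcript had 0, 5 and 5 counts in runx1 null pools and 8, 5 and 7 in wild type pools, too few to check the genotype of a single library. Wild type pool 1 stood apart, with the lowest TMM factor, 0.771, and 41.5% of its counts in 10 genes, against 31.0% to 35.6% in the other 5 libraries. The tissue label was set against markers. All 12 podocyte genes and 16 of 17 tubule genes found by name had a count in both genotypes, with summed tubule levels of 3511 to 5841 CPM in runx1 null pools and 3195 to 4692 CPM in wild type pools.

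Collagen RNA was a small part of the kidney transcriptome. It made up 0.155%, 0.156% and 0.168% of the counts of the runx1 null libraries, against 0.0373%, 0.103% and 0.211% of the wild type libraries. Summed over all 56 genes the level was 1497, 1448 and 1664 CPM in runx1 null pools, against 484, 969.6 and 1965 CPM in wild type pools. A wider wild type range was common in these libraries: among genes with counts in every pool, 24 of 36 collagens, or 66.7%, had a larger fold range between wild type pools than between runx1 null pools, against 69.3% of all tested genes. The size of the range was larger for collagens. Their median fold range between wild type pools was 3.85, against 2.08 over all tested genes with counts in every pool. Between runx1 null pools it was 1.82, against 1.61. All 3 summed runx1 null values lay inside the wild type range, between pool 2 and pool 3. Between 49 and 55 of the 56 genes had a count in a runx1 null library and between 50 and 54 in a wild type library, and none was at 0 in every pool.

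The filter on low counts kept 40 collagen genes, and none of them differed between the genotypes past the threshold. With edgeR's quasi-likelihood test 0 of the 40 had an adjusted p-value under 0.05, as had 0.0% of all 18864 genes tested, and the smallest adjusted p among collagens was 0.811. DESeq2's Wald test also called 0 collagens, with a smallest adjusted p of 0.360, while it called 0.557% of all genes. An unadjusted p-value under 0.05 was found in edgeR for 4 collagens, col6a4a, col21a1, col27a1b and col23a1a, all higher in runx1 null, where 2.57% of all genes were higher and 5.23% passed in either direction. Of these, col21a1 had 3, 7 and 9 counts in wild type libraries and passed the low-count filter through its runx1 null libraries alone. Its place in this count is therefore not independent of the filter. No collagen was lower at an unadjusted p-value under 0.05, against 2.66% of all genes, but col7a1 was close, with an edgeR unadjusted p of 0.0509. The count turned on single pools. It was 2 collagens, against 3.13% of all genes, without runx1 null pool 1, then 2 against 5.05% without runx1 null pool 2 and 3 against 3.86% without runx1 null pool 3. It was 3, of which 1 was lower, against 7.32% without wild type pool 1, then 2 against 4.88% without wild type pool 2 and 11 against 4.72% without wild type pool 3. With all pools it was 3 against 4.77% with the replicate number as a block, 5 against 8.29% with voom weights and 1 against 5.03% with the filter set to a mean of 50 counts. It was 5, of which 1 was lower, against 5.28% with DESeq2 size factors. Scaling without the top 50 genes also gave 5, of which 1 was lower, against 5.23%.

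The fitted changes leaned to one side. Of the 40 tested collagens, 31 had a log2 fold change above 0 (runx1 null over wild type), or 77.5%, against 47.9% of all genes tested. Their median log2 fold change was 0.44, against -0.03 over all genes. It was 0.19 without wild type pool 1 and 0.84 without wild type pool 3. The number above 0 was 26 of 41 tested collagens without wild type pool 1 and 34 of 42 without wild type pool 3. It was 25 of 41 without runx1 null pool 3 and 27 of 40 with voom weights. The genotypes did not overlap for 5 collagens that were higher in runx1 null, COL5A1, col27a1b, col18a1a, col6a4a and col21a1, and for 1 that was lower, col7a1, where the background was 6.26% higher and 6.24% lower. Here too col21a1 was counted after passing the filter through its runx1 null libraries alone. With 3 pools against 3, an exact permutation test of a single gene cannot give a two-sided p-value under 0.1.

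**Figure D1:**
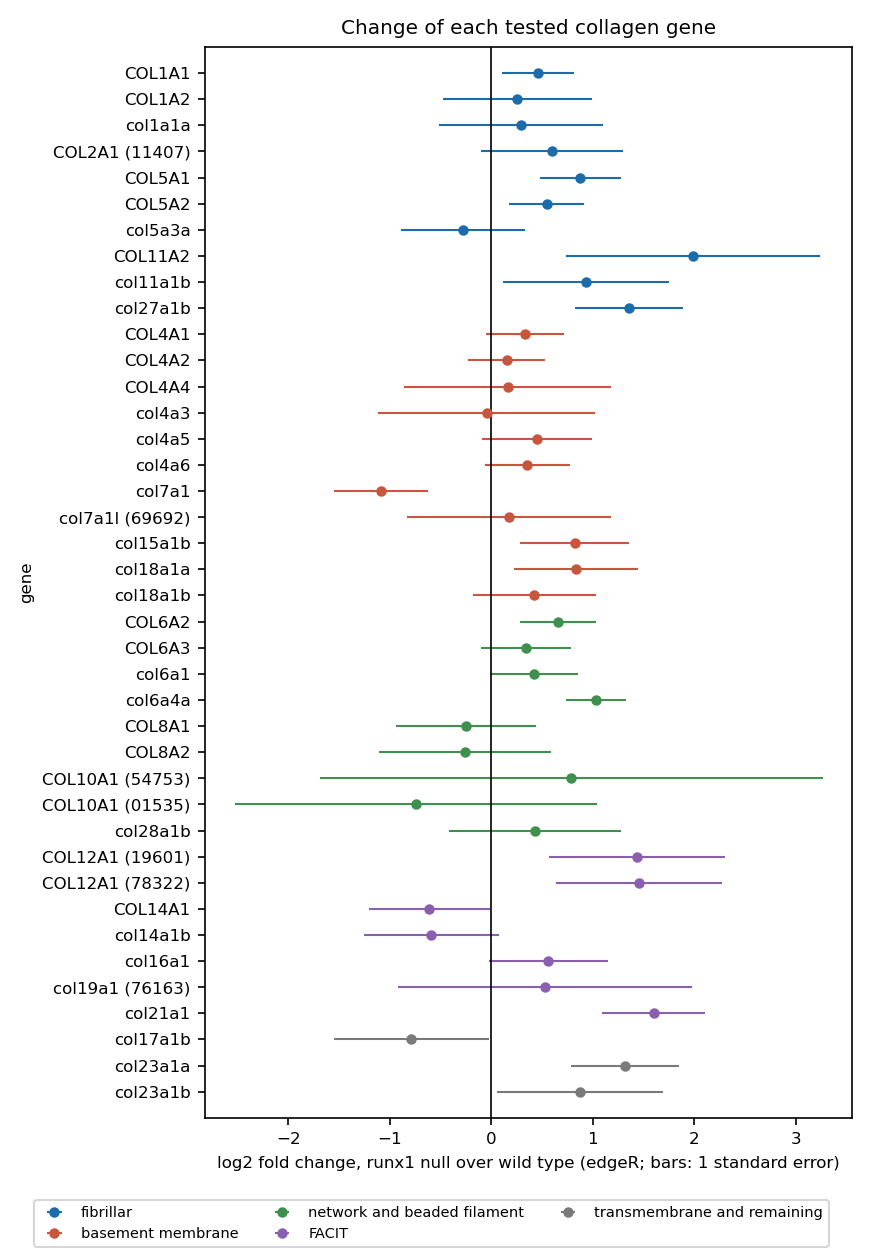
Log2 fold change of each of the 40 tested collagen genes, runx1 null over wild type, from edgeR, with bars of 1 standard error and colours for the class; a number in brackets is the end of the gene identifier where a symbol occurs more than once. Points lie right of 0 for 31 genes, and the smallest adjusted p-value among them was 0.811.

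Collagen levels varied widely between pools of a genotype. Wild type pool 1 had the lowest level of all 6 pools for 28 of the 40 tested collagens, against 36.3% of all tested genes. Runx1 null pool 3 was the highest pool for 13 of the 40 collagens and runx1 null pool 1 for 10, against 19.3% and 13.9% of all tested genes. The median deviation of the collagens from their own mean over pools, on the log2(CPM + 0.5) scale, was 0.23, 0.17 and 0.35 in runx1 null pools, against -0.90, -0.12 and 0.25 in wild type pools. Over all tested genes the same median was -0.02 to 0.01 in runx1 null pools and -0.09 to -0.01 in wild type pools.

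**Figure D2:**
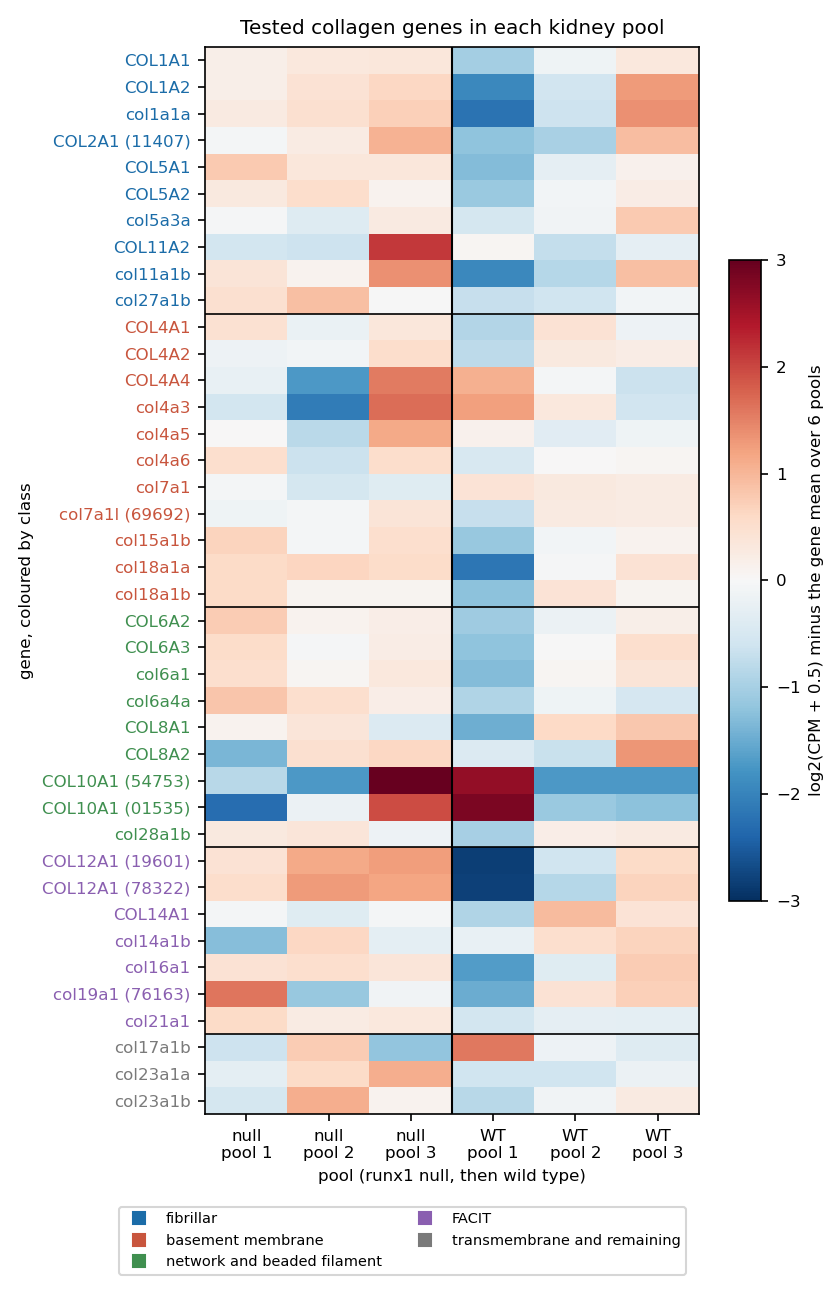
Level of the 40 tested collagen genes in each pool as log2(CPM + 0.5) minus the mean of the gene over the 6 pools, with runx1 null pools on the left, genes grouped by class and the colour scale clipped at both ends. The column of wild type pool 1 is blue for most genes, the lowest pool for 28 of 40. The COL10A1 genes, col17a1b, col4a3 and COL4A4 are among the red exceptions.

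Markers of other cell types and tissues also differed between pools, in several different orders, and none of these orders was tested against the collagen levels. The summed level of 8 erythroid markers, globins and genes of heme synthesis among them, was 58840 to 73220 CPM in runx1 null pools, against 127300 CPM in wild type pool 1 and 72140 and 78180 CPM in wild type pools 2 and 3. The 13 markers of fibroblasts and mural cells, such as PDGFRA and DCN, summed to 852.6 to 1688 CPM in runx1 null pools and 738 to 996 CPM in wild type pools, lowest in wild type pool 1. A few genes carried this sum. CXCL12 was at 1007 CPM in runx1 null pool 1. The TAGLN gene ENSDARG00000033466 was at 491.5 CPM in wild type pool 1, its highest pool, and at 97.27 to 164.5 CPM elsewhere. Every other marker of this list was lowest in wild type pool 1, with DCN at 19.34 CPM there and 56.84 to 102.4 CPM elsewhere. The 11 endothelial markers summed to 356 to 545 CPM in runx1 null pools and 149 to 464.5 CPM in wild type pools, again lowest in wild type pool 1. Tissues next to the kidney also varied by pool: 11 liver markers summed to 20060, 1469 and 29150 CPM in runx1 null pools, against 51.69, 5213 and 6699 CPM in wild type pools, and 14 muscle markers to 238.9 to 673.9 CPM in runx1 null pools and 144.1 to 589.3 CPM in wild type pools. The 11 oocyte markers summed to 3.889, 40.83 and 351.6 CPM in runx1 null pools, against 5.798, 250.4 and 1145 CPM in wild type pools, highest in wild type pool 3, where the summed level of type I collagen, 1261 CPM, was highest too. No marker of these lists was at 0 in every pool. Fewer cells of a type and less RNA per cell cannot be told apart in bulk tissue, and the part of cell composition in the collagen levels was not tested.

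Fibrillar collagens came first by count. Of 15 genes 10 were tested, with 9 log2 fold changes above 0 and a median of 0.57. Their summed level was 794, 885 and 999 CPM in runx1 null pools, against 212, 488 and 1371 CPM in wild type pools, so the genotypes overlapped.

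Type I collagen is the main fibre protein of bone, skin and tendon, and 3 genes carry its name here. col1a1a (ENSDARG00000012405), an alpha 1 chain, was at 322, 371 and 442 CPM in runx1 null pools, against 57.0, 172 and 697 CPM in wild type pools. The wild type pools spanned 12.2-fold and the runx1 null pools 1.37-fold, and the runx1 null pools lay between wild type pools 2 and 3. Its log2 fold change was 0.29 (SE 0.81, edgeR adjusted p 0.929). It was -0.20 without wild type pool 1, 0.002 without wild type pool 2 and 1.72 without wild type pool 3.

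COL1A2 (ENSDARG00000020007), the alpha 2 chain, was at 174, 208 and 236 CPM in runx1 null pools, against 40.3, 104 and 374 CPM in wild type pools. Its log2 fold change was 0.26 (SE 0.73, edgeR adjusted p 0.932), and leaving out single wild type pools gave -0.21 without pool 1, -0.012 without pool 2 and 1.52 without pool 3. A further alpha 1 gene, listed as COL1A1 (ENSDARG00000035809), was at 175, 192 and 193 CPM in runx1 null pools, against 76.0, 141 and 190.2 CPM in wild type pools (log2 fold change 0.46, SE 0.36, edgeR adjusted p 0.811). Here the wild type pools spanned 2.50-fold, less than for the other type I genes, and the genotypes still overlapped.

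Count ratios within a pool do not depend on the scaling of the library, and gene length cancels when 1 ratio is compared across pools. The ratio of col1a1a to COL1A2 counts was 1.85, 1.79 and 1.87 in runx1 null pools, against 1.41, 1.66 and 1.86 in wild type pools. This ratio spanned 1.32-fold while their levels differed by 12.2-fold and 9.28-fold across pools. The ratio of COL1A1 to COL1A2 was 1.0, 0.923 and 0.816 in runx1 null pools, against 1.88, 1.36 and 0.508 in wild type pools, a 3.71-fold span. The gene listed as COL1A1 therefore did not keep a fixed proportion to the other type I genes, and the runx1 null ratios lay between those of wild type pools 2 and 3.

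**Figure D3:**
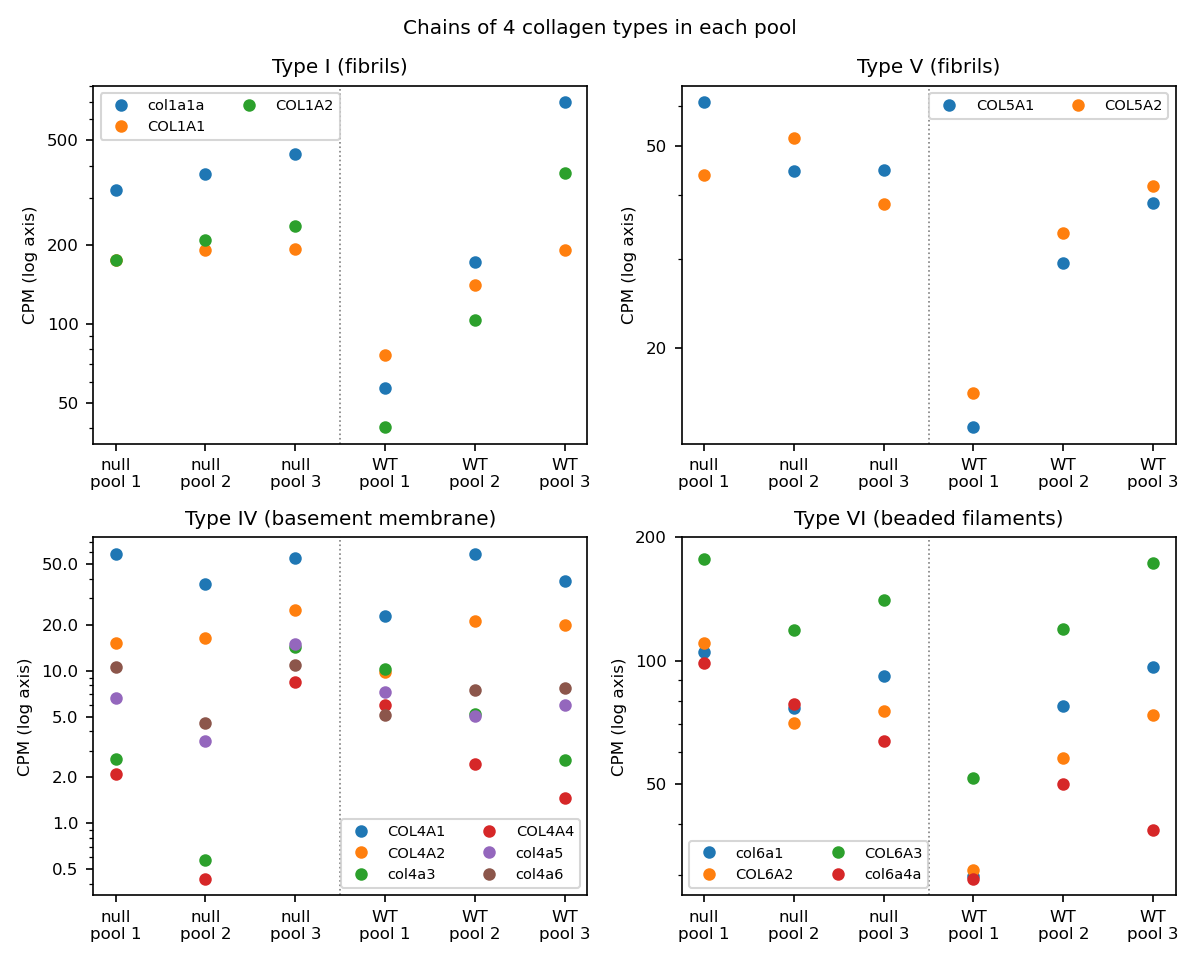
Level in CPM, on a log axis, of chains of type I, V, IV and VI collagen in each pool, with runx1 null pools left of the dotted line and wild type pools right of it. In the type I panel wild type pools range from 57.0 to 697 CPM for col1a1a and runx1 null pools from 322 to 442 CPM; in the type IV panel col4a3 and COL4A4 are lowest in runx1 null pool 2.

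Type V collagen is a minor fibrillar type that sets the diameter of type I fibrils. COL5A1 (ENSDARG00000012593) was at 61.1, 44.7 and 44.9 CPM in runx1 null pools, against 13.9, 29.3 and 38.6 CPM in wild type pools. Each runx1 null pool was above each wild type pool, yet its log2 fold change of 0.88 (SE 0.40) had an edgeR adjusted p of 0.811. COL5A2 (ENSDARG00000031678) was at 43.9, 51.8 and 38.5 CPM in runx1 null pools, against 16.3, 33.7 and 41.8 CPM in wild type pools (log2 fold change 0.55, SE 0.37, edgeR adjusted p 0.811).

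The genotypes overlapped for COL5A2 through wild type pool 3 alone, which was above runx1 null pool 3. col5a3a (ENSDARG00000098294) stayed between 0.677 and 1.37 CPM in runx1 null pools and between 0.579 and 2.16 CPM in wild type pools (log2 fold change -0.28, SE 0.61, edgeR adjusted p 0.910; 0.41 without wild type pool 3).

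The remaining fibrillar genes belong to types known from cartilage and from thin fibrils. col27a1b (ENSDARG00000099930), of a type expressed in cartilage and the notochord sheath, was at 1.74, 2.47 and 1.08 CPM in runx1 null pools, against 0.482, 0.554 and 1.003 CPM in wild type pools. The lowest runx1 null pool exceeded the highest wild type pool by a narrow gap, and the log2 fold change was 1.36 (SE 0.53, edgeR adjusted p 0.811). col11a1b (ENSDARG00000009014), of type XI, which seeds cartilage fibrils, was at 8.26, 6.63 and 16.7 CPM in runx1 null pools, against 1.25, 3.20 and 12.04 CPM in wild type pools (log2 fold change 0.93, SE 0.82, edgeR adjusted p 0.811).

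COL2A1 (ENSDARG00000011407), of type II, the main collagen of cartilage, was at 5.92, 7.48 and 13.2 CPM in runx1 null pools, against 2.41, 2.89 and 12.3 CPM in wild type pools. The log2 fold change was 0.60 (SE 0.70, edgeR adjusted p 0.833). Both col11a1b and this COL2A1 gene were highest in runx1 null pool 3, next in wild type pool 3 and lowest in wild type pool 1. Beside them, the 18 skeletal and cartilage markers summed to 82.2, 74.4 and 88.0 CPM in runx1 null pools, against 22.4, 56.8 and 153 CPM in wild type pools. PHEX at 69.3 CPM and hapln1a at 59.4 CPM carried most of the sum of wild type pool 3. The marker spp1 was at 9.34 CPM in runx1 null pool 3, 5.14 CPM in wild type pool 3 and lowest, 0.579 CPM, in wild type pool 1. Other listed markers had other orders. MATN1 was highest in wild type pool 1, at 1.40 CPM. epyc was highest in runx1 null pool 1, at 2.94 CPM, and next in wild type pool 1, at 2.87 CPM. Osteocalcin (bglap), an osteoblast gene, was at most at 1.48 CPM in any pool.

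COL11A2 (ENSDARG00000012422) had the highest fitted value of the tested collagens (log2 fold change 1.98, SE 1.25, edgeR adjusted p 0.811). It rested on runx1 null pool 3, at 4.19 CPM with 113 counts. The other runx1 null pools were at 0.239 and 0.203 CPM and the wild type pools at 0.627, 0.158 and 0.395 CPM. Without runx1 null pool 3 its log2 fold change was -0.82. The 5 fibrillar genes left out by the filter, a second COL2A1 gene, col5a2b, col5a3b, COL11A1 and col24a1, were at most at 4.34 CPM in any pool, and that value belonged to col5a2b in runx1 null pool 3.

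Among the basement membrane collagens 11 of 12 genes were tested, and their median log2 fold change was 0.33. Their summed level was 133, 98.4 and 163 CPM in runx1 null pools, against 67.8, 125 and 109 CPM in wild type pools. The median was -0.10 without runx1 null pool 3.

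All 6 type IV chains were tested, and none of them separated the genotypes. COL4A1 (ENSDARG00000055009) and COL4A2 (ENSDARG00000104110) form the network of most basement membranes. COL4A1 was at 58.3, 37.2 and 54.5 CPM in runx1 null pools, against 22.9, 57.8 and 38.5 CPM in wild type pools (log2 fold change 0.33, SE 0.38, edgeR adjusted p 0.831). COL4A2 was at 15.3, 16.3 and 24.8 CPM in runx1 null pools, against 9.80, 21.02 and 19.98 CPM in wild type pools (log2 fold change 0.15, SE 0.38, edgeR adjusted p 0.920; -0.16 with voom weights, -0.10 without runx1 null pool 3 and -0.14 without wild type pool 1).

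The ratio of COL4A1 to COL4A2 counts was 3.82, 2.28 and 2.2 in runx1 null pools, against 2.33, 2.75 and 1.93 in wild type pools. Runx1 null pool 1 stood highest in that ratio, and the other 5 pools lay between 1.93 and 2.75.

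The chains alpha 3, alpha 4 and alpha 5 make up the mature membrane of the glomerulus in mammals, where their loss causes Alport syndrome. col4a3 (ENSDARG00000003395) was at 2.63, 0.575 and 14.3 CPM in runx1 null pools, against 10.3, 5.21 and 2.59 CPM in wild type pools (log2 fold change -0.04, SE 1.07, edgeR adjusted p 0.994; 0.30 without runx1 null pool 1, 0.46 without runx1 null pool 2 and 0.57 without wild type pool 1). COL4A4 (ENSDARG00000002831) was at 2.11, 0.434 and 8.49 CPM in runx1 null pools, against 5.96, 2.46 and 1.46 CPM in wild type pools (log2 fold change 0.16, SE 1.02, edgeR adjusted p 0.972; -0.63 with the replicate block, -0.098 with voom weights, -1.40 without runx1 null pool 3, -0.015 without wild type pool 2 and -0.20 without wild type pool 3). Both genes followed the same order of pools, high in runx1 null pool 3 and wild type pool 1 and lowest in runx1 null pool 2.

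The count ratio of col4a3 to COL4A4 was 1.25, 1.33 and 1.68 in runx1 null pools, against 1.73, 2.12 and 1.77 in wild type pools, a 1.70-fold span, while the levels of these genes spanned 24.9-fold and 19.6-fold. The 12 podocyte markers did not follow them: they summed to 204, 180 and 205 CPM in runx1 null pools, against 80.7, 197 and 134 CPM in wild type pools, lowest in wild type pool 1. Nephrin (NPHS1), a protein of the podocyte slit membrane, was at 2.63, 0.981 and 5.15 CPM in runx1 null pools, against 1.16, 5.02 and 3.80 CPM in wild type pools.

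col4a5 (ENSDARG00000052063) was at 6.58, 3.48 and 14.9 CPM in runx1 null pools, against 7.23, 5.06 and 5.93 CPM in wild type pools (log2 fold change 0.45, SE 0.54, edgeR adjusted p 0.835; -0.27 without runx1 null pool 3). col4a6 (ENSDARG00000052061) was at 10.7, 4.57 and 10.9 CPM in runx1 null pools, against 5.16, 7.47 and 7.72 CPM in wild type pools (log2 fold change 0.36, SE 0.42, edgeR adjusted p 0.833). For both the runx1 null pools spanned more than the wild type pools, 4.27-fold in runx1 null against 1.43-fold in wild type for col4a5 and 2.39-fold in runx1 null against 1.5-fold in wild type for col4a6. The wild type range lay inside the runx1 null range for each.

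Other collagens of basement membranes are types XV and XVIII, which carry sugar chains and link the membrane to the tissue beneath, and type VII, which forms anchoring fibrils under epithelia. col18a1a (ENSDARG00000036558), the precursor of endostatin, was at 29.4, 30.9 and 28.7 CPM in runx1 null pools, against 4.003, 19.2 and 26.6 CPM in wild type pools. Each runx1 null pool was above each wild type pool, and the runx1 null pools differed by 1.08-fold; the log2 fold change was 0.84 (SE 0.61, edgeR adjusted p 0.811).

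col18a1b (ENSDARG00000095901) was at 2.17 to 3.23 CPM in runx1 null pools and 0.579 to 2.85 CPM in wild type pools (log2 fold change 0.43, SE 0.61, edgeR adjusted p 0.856; -0.008 without wild type pool 1). col15a1b (ENSDARG00000061848) was at 2.06 to 3.77 CPM in runx1 null pools and 0.723 to 2.37 CPM in wild type pools (log2 fold change 0.82, SE 0.54, edgeR adjusted p 0.811). Wild type pools 2 and 3 reached into the runx1 null range for col18a1b, and wild type pool 3 did for col15a1b.

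col7a1 (ENSDARG00000021720) was the single collagen below the wild type range in each runx1 null pool. It was at 0.658, 0.338 and 0.445 CPM in runx1 null pools, against 1.11, 0.989 and 0.942 CPM in wild type pools (log2 fold change -1.09, SE 0.46, edgeR adjusted p 0.811). At these levels a library held 10 to 31 counts. Of the pair listed as col7a1l, ENSDARG00000069692 was at 0.239 to 0.556 CPM in runx1 null pools and 0 to 0.475 CPM in wild type pools (log2 fold change 0.17, SE 1.005, edgeR adjusted p 0.969), and ENSDARG00000093135 had at most 3 counts in any library.

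Type VI collagen took the second largest part of the collagen counts. The fitted log2 fold change was above 0 for 4 of 4 tested type VI genes, with a median of 0.54. The genotypes overlapped for each of these genes except col6a4a. The summed level was 492.5, 344 and 372 CPM in runx1 null pools, against 142, 305 and 382 CPM in wild type pools. The classical chains alpha 1, alpha 2 and alpha 3 kept their proportions: the ratio of COL6A3 to col6a1 counts was 1.53 to 1.69 in runx1 null pools and 1.54 to 1.79 in wild type pools, and the ratio of col6a1 to COL6A2 was 0.950 to 1.22 in runx1 null pools and 0.970 to 1.34 in wild type pools.

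col6a1 (ENSDARG00000074908) was at 105, 76.8 and 92.1 CPM in runx1 null pools, against 29.9, 77.7 and 96.6 CPM in wild type pools (log2 fold change 0.42, SE 0.43, edgeR adjusted p 0.819). COL6A2 (ENSDARG00000061436) was at 70.4 to 111 CPM in runx1 null pools and 30.9 to 73.8 CPM in wild type pools (log2 fold change 0.66, SE 0.38, edgeR adjusted p 0.811). COL6A3 (ENSDARG00000077139) was at 119 to 178 CPM in runx1 null pools and 51.9 to 173 CPM in wild type pools (log2 fold change 0.34, SE 0.45, edgeR adjusted p 0.845; -0.012 without wild type pool 1). For these 3 genes wild type pool 1 was the lowest of the 6 pools. Wild type pool 3 reached into the runx1 null range for each of them, and wild type pool 2 for col6a1 and COL6A3.

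col6a4a (ENSDARG00000079752), which encodes a further type VI chain, had the smallest unadjusted p-value of the collagens, 0.0111. It was at 98.9, 78.5 and 63.7 CPM in runx1 null pools, against 29.4, 50.03 and 38.6 CPM in wild type pools, or 80.3 ± 17.7 and 39.3 ± 10.4 CPM (SD, n = 3 each). This fitted difference, 1.03 on the log2 scale (SE 0.30), had an edgeR adjusted p of 0.811 and a DESeq2 adjusted p of 0.360. The value stayed between 0.85 and 1.24 when each pool was left out. Set against col6a1, its count ratio was 0.939, 1.02 and 0.692 in runx1 null pools, against 0.981, 0.644 and 0.400 in wild type pools. The genotypes overlapped in that ratio through wild type pool 1, whose ratio was second only to that of runx1 null pool 2.

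The other network collagens had no genotype separation among tested genes. Type VIII genes, known from vessel walls and cornea, were at 0.778 to 4.60 CPM in runx1 null pools and 0.868 to 7.81 CPM in wild type pools, with log2 fold changes of -0.25 for COL8A1 and -0.26 for COL8A2 (SE 0.69 and 0.85, edgeR adjusted p 0.929 and 0.942). COL10A1 is listed for a pair of genes of type X, the collagen of hypertrophic cartilage and, in fish, of forming bone. These genes are named because their values stood out once seen. The first COL10A1 gene (ENSDARG00000054753) was at 0.419, 0 and 16.1 CPM in runx1 null pools, against 9.65, 0 and 0 CPM in wild type pools. The other (ENSDARG00000101535) was at 0, 1.66 and 9.01 CPM in runx1 null pools, against 16.9, 0.633 and 0.547 CPM in wild type pools.

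Of the 4 type XXVIII genes, which are beaded filament collagens, col28a1b (ENSDARG00000087087) was tested, at 0.482 to 0.913 CPM in runx1 null pools and 0.0482 to 0.821 CPM in wild type pools (log2 fold change 0.43, SE 0.84, edgeR adjusted p 0.894). The other type XXVIII genes and col8a1a did not pass the filter and reached at most 1.34 CPM.

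Both COL10A1 genes were thus high in runx1 null pool 3 and wild type pool 1, and low or without counts in the other 4 pools. As related genes they may share reads that the expected counts divided by a model. The same pools led in skin markers: the 9 listed genes summed to 220, 232 and 437 CPM in runx1 null pools, against 665.5, 195 and 180 CPM in wild type pools, with the epidermal keratin krt5 at 424 CPM in wild type pool 1 and at most 28.8 CPM elsewhere. The sum of runx1 null pool 3 held krt4 at 271.2 CPM, a gene at 76.49 CPM in wild type pool 1 and 122.1 CPM in runx1 null pool 2. krt5 was lower in runx1 null pool 3 than in runx1 null pool 1, and icn was highest in wild type pool 2. The claudin gene cldne was at 9.57 CPM in runx1 null pool 3, 10.7 CPM in wild type pool 1 and at most 0.744 CPM in the other pools. TP63, cldni, evpla, agr1 and krt1-19d were also highest in wild type pool 1 and next in runx1 null pool 3. No skin marker was at 0 in every pool, and the part of such tissue in the collagen values was not tested.

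col17a1b (ENSDARG00000079011), whose type XVII protein spans the membrane of basal epidermal cells, was at 4.13, 11.6 and 2.63 CPM in runx1 null pools, against 20.9, 5.89 and 4.92 CPM in wild type pools (log2 fold change -0.78, SE 0.76, edgeR adjusted p 0.813; 0.17 without wild type pool 1). It shared its highest pool, wild type pool 1, with the skin markers, but not runx1 null pool 3, where it was lowest. The other tested transmembrane genes were of type XXIII. col23a1a (ENSDARG00000095339) was at 1.26, 2.71 and 4.08 CPM in runx1 null pools, against 0.916, 0.910 and 1.40 CPM in wild type pools (log2 fold change 1.32, SE 0.54, edgeR adjusted p 0.811). col23a1b (ENSDARG00000089078) was at 0.359 to 2.13 CPM in runx1 null pools and 0.193 to 0.973 CPM in wild type pools (log2 fold change 0.87, SE 0.82, edgeR adjusted p 0.813; -0.068 without runx1 null pool 2). The fourth gene of the class, col17a1a, had at most 11 counts and was not tested.

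**Figure D4:**
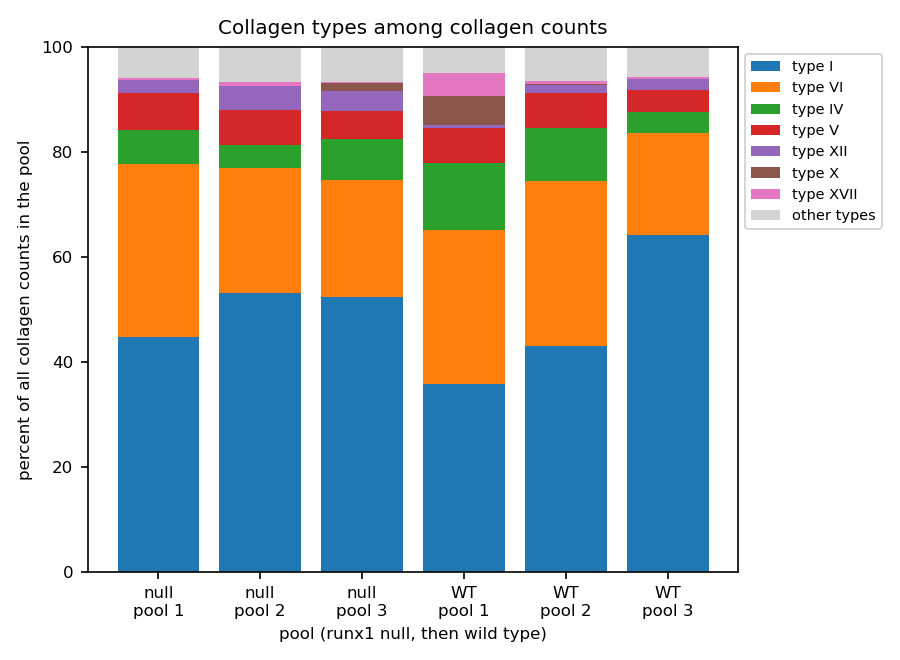
Collagen types as a percentage of all collagen counts in each pool, with runx1 null pools on the left and wild type pools on the right. Type I takes 44.8% to 53.2% in runx1 null pools and 35.8% to 64.2% in wild type pools, and types X and XVII are visible mainly in wild type pool 1.

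The make-up of the collagen counts does not depend on the library scaling. Type I took 44.8%, 53.2% and 52.4% of collagen counts in runx1 null pools, against 35.8%, 43.0% and 64.2% in wild type pools. Type VI took 32.9%, 23.8% and 22.4% in runx1 null pools, against 29.4%, 31.5% and 19.5% in wild type pools, and type IV took 6.38%, 4.32% and 7.69% in runx1 null pools, against 12.7%, 10.2% and 3.88% in wild type pools. For each of these 3 types the runx1 null range overlapped the wild type range. Type XII was the exception among the larger types, at 2.57%, 4.50% and 3.82% in runx1 null pools, against 0.618%, 1.58% and 2.18% in wild type pools, with each runx1 null pool above each wild type pool. Among the smaller types, type XXI was higher without overlap, at 0.04012% to 0.05995% in runx1 null pools and 0.01393% to 0.02989% in wild type pools. Type VII was lower without overlap, at 0.04905% to 0.06463% in runx1 null pools and 0.07582% to 0.2391% in wild type pools. These shares were not tested, and no background was set beside them.

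Type XII is a FACIT collagen that coats type I fibrils in tendon, fascia and dermis. Of 12 FACIT genes 7 were tested, with a median log2 fold change of 0.56. The summed level of the class was 65.9, 92.9 and 88.4 CPM in runx1 null pools, against 10.6, 36.5 and 78.5 CPM in wild type pools. Leaving out wild type pool 1 gave a median of 0.14, and leaving out wild type pool 3 gave 1.37.

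Of the pair listed as COL12A1, ENSDARG00000078322 was at 27.8, 47.6 and 44.2 CPM in runx1 null pools, against 2.31, 10.4 and 30.9 CPM in wild type pools. Its log2 fold change was 1.45 (SE 0.82, edgeR adjusted p 0.811), with 0.95 without wild type pool 1 and 2.65 without wild type pool 3. The other COL12A1 gene, ENSDARG00000019601, was at 10.7, 17.6 and 19.4 CPM in runx1 null pools, against 0.675, 4.98 and 11.9 CPM in wild type pools (log2 fold change 1.43, SE 0.86, edgeR adjusted p 0.811).

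Wild type pool 3 reached into the runx1 null range for both, above runx1 null pool 1. Their count ratio was 2.28 to 2.71 in runx1 null pools and 2.08 to 3.43 in wild type pools, so the paralogs varied together. With the replicate number as a block the log2 fold changes were 2.09 and 2.07, without passing the threshold (edgeR adjusted p 0.914 for each).

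The other FACIT genes were of types IX, XIV, XVI, XIX and XXI. col16a1 (ENSDARG00000009194) was at 19.99, 20.9 and 18.9 CPM in runx1 null pools, against 4.24, 11.2 and 25.02 CPM in wild type pools (log2 fold change 0.56, SE 0.58, edgeR adjusted p 0.821). COL14A1 (ENSDARG00000005762) was at 1.62 to 2.11 CPM in runx1 null pools and 0.965 to 4.79 CPM in wild type pools (log2 fold change -0.61, SE 0.60, edgeR adjusted p 0.814). The runx1 null pools of these genes lay close together, within 1.11-fold and 1.3-fold, inside a wider wild type range.

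col21a1 (ENSDARG00000025320) had 15, 18 and 18 counts in runx1 null libraries and 3, 7 and 9 counts in wild type libraries. This was 0.898, 0.609 and 0.667 CPM in runx1 null pools, against 0.145, 0.277 and 0.274 CPM in wild type pools, with no overlap. The gene passed the low-count filter through its runx1 null libraries alone. The log2 fold change was 1.60 (SE 0.51, edgeR adjusted p 0.811), and it was 1.36 to 1.74 when each pool was left out. Type XIX has a pair of genes listed as col19a1: ENSDARG00000076163 was at 3.77, 0.135 and 0.816 CPM in runx1 null pools, against 0, 1.38 and 1.79 CPM in wild type pools (log2 fold change 0.53, SE 1.45, edgeR adjusted p 0.929), and ENSDARG00000096073 reached at most 1.19 CPM and was not tested. col14a1b (ENSDARG00000076623) was at 0.598 to 3.55 CPM in runx1 null pools and 1.78 to 3.73 CPM in wild type pools (log2 fold change -0.59, SE 0.67, edgeR adjusted p 0.830). The 4 type IX genes, which decorate cartilage fibrils, did not pass the filter and reached at most 0.575 CPM.

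**Figure D5:**
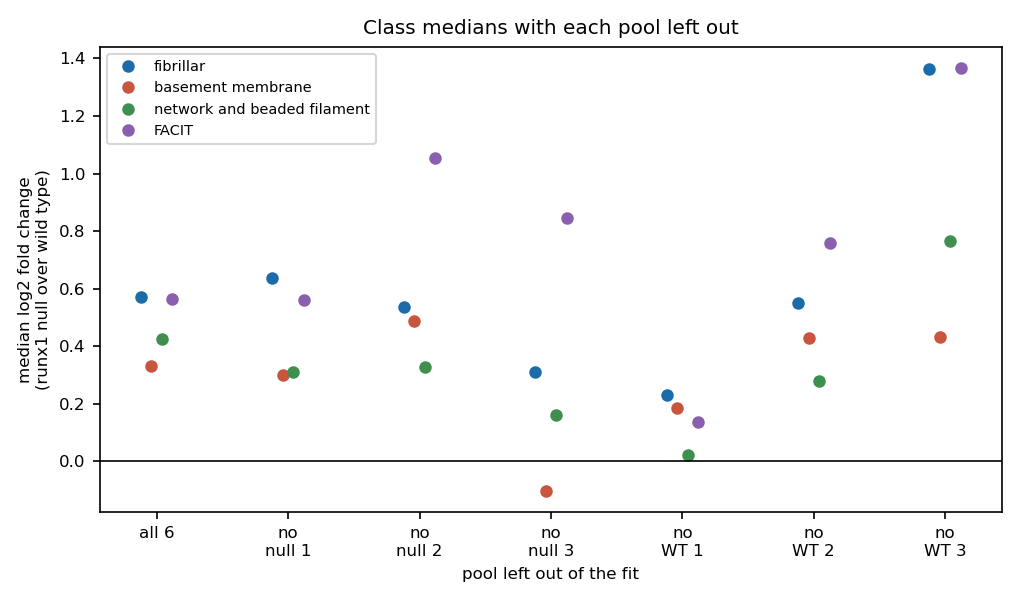
Median log2 fold change of 4 collagen classes, runx1 null over wild type, with all 6 pools and with each pool left out of the fit. The fibrillar median moves between 0.23 without wild type pool 1 and 1.36 without wild type pool 3, and the basement membrane median is below 0 only without runx1 null pool 3.

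Genes that build, join, anchor or degrade collagen were examined from 6 lists, beside all tested genes, of which 47.9% had a log2 fold change above 0. Enzymes and chaperones of collagen synthesis numbered 26, all tested, with 15 above 0 and a median log2 fold change of 0.23; 0 passed in edgeR, and the unadjusted p-value was under 0.05 for 2 higher genes and 0 lower ones, where 2.57% of all genes were higher and 2.66% lower. P4HA3 (ENSDARG00000103692), a catalytic subunit of the prolyl hydroxylase that stabilises the triple helix, was at 5.56, 3.25 and 3.34 CPM in runx1 null pools, against 1.40, 0.633 and 0.760 CPM in wild type pools. The genotypes did not overlap. The fitted log2 fold change was 2.12 (SE 0.49) with an edgeR adjusted p of 0.766, and the DESeq2 Wald test called it at 2.09 with an adjusted p of 0.0266. PLOD2 (ENSDARG00000011821), a lysyl hydroxylase that prepares cross-links, was at 14.2, 17.9 and 10.3 CPM in runx1 null pools, against 2.89, 9.02 and 7.33 CPM in wild type pools (log2 fold change 1.14, SE 0.47, edgeR adjusted p 0.811). The genotypes overlapped for the other listed P4HA and PLOD genes. Their log2 fold changes were -0.06 for P4HA1, -0.25 for P4HA2, 0.27 for p4ha1a, -0.16 for PLOD1 and -0.43 for PLOD3.

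Of 19 genes of processing and cross-linking 12 were tested, 11 of them above 0, with a median log2 fold change of 0.69 and 0 passing in edgeR, and the unadjusted p-value was under 0.05 for 1 higher gene and 0 lower ones, against 2.57% higher and 2.66% lower over all genes. pcolcea (ENSDARG00000056913), which enhances the trimming of procollagen, was at 59.1, 58.9 and 56.1 CPM in runx1 null pools, against 16.7, 40.0 and 26.1 CPM in wild type pools, with no overlap (log2 fold change 1.07, SE 0.34, edgeR adjusted p 0.811). Of 17 genes of collagen breakdown 16 were tested, with a median of 0.32, 0 passing in edgeR, and 1 higher and 1 lower at an unadjusted p-value under 0.05, against the same 2.57% and 2.66% of all genes. The inhibitor gene TIMP4 (ENSDARG00000102617) was at 1.85, 1.83 and 4.97 CPM in runx1 null pools, against 5.02, 12.6 and 10.8 CPM in wild type pools (log2 fold change -1.71, SE 0.57, edgeR adjusted p 0.811). The genotypes overlapped for the other gene listed as TIMP4, ENSDARG00000100795 (log2 fold change 0.06, SE 0.55, edgeR adjusted p 0.982). MMP15 (ENSDARG00000013072), a membrane-bound protease, was at 2.33 to 3.45 CPM in runx1 null pools and 1.01 to 1.88 CPM in wild type pools (log2 fold change 1.02, SE 0.41, edgeR adjusted p 0.811). They overlapped for the other gene listed as MMP15, ENSDARG00000051962 (log2 fold change 0.79, SE 0.68, edgeR adjusted p 0.811).

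Partners of type IV collagen in the basement membrane had 17 of 21 tested genes above 0, a median log2 fold change of 0.52 and 0 passing in edgeR, and the unadjusted p-value was under 0.05 for 3 higher genes and 0 lower ones, against 2.57% higher and 2.66% lower over all genes. NID1 (ENSDARG00000068710), the nidogen that bridges laminin and type IV collagen, was at 52.7, 44.2 and 82.2 CPM in runx1 null pools, against 12.8, 24.4 and 33.0 CPM in wild type pools (log2 fold change 1.35, SE 0.42, edgeR adjusted p 0.811). LAMB1 (ENSDARG00000101209), a laminin chain, was at 11.6, 19.5 and 19.2 CPM in runx1 null pools, against 5.55, 7.67 and 9.21 CPM in wild type pools (log2 fold change 1.16, SE 0.34, edgeR adjusted p 0.811). A further laminin gene, lamb2l (ENSDARG00000033950), was at 7.36 to 14.8 CPM in runx1 null pools and 3.28 to 6.61 CPM in wild type pools (log2 fold change 1.11, SE 0.43, edgeR adjusted p 0.811). The genotypes overlapped for the other genes listed as NID1 (ENSDARG00000103129) and LAMB1 (ENSDARG00000045524). Their log2 fold changes were 0.52 and 0.29 (SE 0.42 and 0.385, edgeR adjusted p 0.811 and 0.848). Of the 21 tested partners 6 did not overlap with runx1 null higher and 1 with runx1 null lower, against 6.26% and 6.24% of all genes. The higher genes were NID1 (ENSDARG00000068710), LAMB1 (ENSDARG00000101209), lamb2l, NID2, AGRN (agrin) and PXDN (peroxidasin), and the lower gene was lamc3. Those without an unadjusted p-value under 0.05 had log2 fold changes of 0.67 for NID2, 0.95 for AGRN, 0.86 for PXDN and -0.78 for lamc3 (edgeR adjusted p 0.811 for each). The genotypes overlapped for each type IV chain. Genes without overlap, higher and lower in runx1 null, numbered 4 and 0 of 26 for synthesis, with P4HA3 and PLOD2 among them. They numbered 2 and 0 of 12 for processing and cross-linking, and 1 and 1 of 16 for breakdown, MMP15 and TIMP4. For partners of fibrils they numbered 2 and 1 of 20, and for collagen receptors 0 and 1 of 8.

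Partners of fibrils had 16 of 20 tested genes above 0, a median of 0.51 and no gene past the adjusted threshold or with an unadjusted p-value under 0.05 in edgeR, against 5.23% of all genes for the second. Fibronectin, FN1 (ENSDARG00000006526), was at 993, 681 and 1010 CPM in runx1 null pools, against 552.5, 1002 and 659 CPM in wild type pools (log2 fold change 0.28, SE 0.34, edgeR adjusted p 0.840). The other gene listed as FN1, ENSDARG00000019815, also overlapped (log2 fold change 0.99, SE 0.695, edgeR adjusted p 0.811). Of 10 collagen receptor genes 8 were tested, with a median log2 fold change of 0.51, 0 passing in edgeR, and 0 higher and 1 lower at an unadjusted p-value under 0.05, where the shares over all genes were 2.57% and 2.66%. ITGA2 (ENSDARG00000062974), the integrin subunit by which mammalian platelets hold collagen, was at 0.299, 0.541 and 0.742 CPM in runx1 null pools, against 3.71, 1.94 and 2.04 CPM in wild type pools. Its log2 fold change was -2.25 (SE 0.53, edgeR adjusted p 0.787), and the DESeq2 Wald test called it lower at -2.29 with an adjusted p of 0.0377. The listed gene itga2.3 (ENSDARG00000086838) went the other way with overlapping genotypes (log2 fold change 0.59, SE 0.67, edgeR adjusted p 0.830). The listed gene itga2.1 did not pass the filter. Beside ITGA2, 8 thrombocyte markers summed to 475.5 to 636.1 CPM in runx1 null pools and 791.3 to 1687 CPM in wild type pools. The part of these markers in the value of ITGA2 was not tested.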

How the data were processed

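Kidney RNA of 6 pools, 3 runx1 null and 3 wild type, was sequenced from paired-end libraries, per the labels' protocols. The authors deposited 1 table of expected counts per library; 12.7% to 14.9% of nonzero values were not whole, and totals were unscaled. STAR, RSEM, DESeq2 and the build GRCz10 are named in the submitters' processing notes; their roles, the annotation and the use of strand are not given in the sources used here, so counts of related or overlapping genes are uncertain. Symbols came from a name table covering 26433 of the 32266 identifiers, many in human spelling; zebrafish paralog names were not inferred, and no coordinates or sequences are given.

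Expected counts were rounded to whole numbers, filtered with filterByExpr at a minimum count of 10, scaled by TMM and tested for genotype with edgeR 4.0.16 in R 4.3.3 (quasi-likelihood F test, Benjamini-Hochberg adjustment over all tested genes, threshold 0.05). The standard error is the log2 fold change divided by the root of F. CPM use the unrounded counts. The fits were tested on simulated data. Alternatives were DESeq2 1.42.0 (size factors, Wald test), 2 other filters, scaling without the top 50 genes, voom with library weights (limma 3.58.1), unrounded counts, a threshold of 0.1, the replicate number as a block and leaving out each pool. Listed genes were matched by symbol, or by the symbol without its paralog letter. Named were the tested members of types I to V, the 4 of highest mean CPM in the rest of each class, members that did not overlap or had an unadjusted p-value under 0.05, and up to 4 genes per partner list. Members, classes and lists were chosen with earlier results of these data known. Same-numbered pools hold different fish.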

Additional observations from a re-analysis of the deposited data

How the results depend on the processing

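No collagen passed the adjusted threshold in any of the 15 alternatives run, and 0 of all genes passed in 14 of them; the DESeq2 Wald test called 105 genes, none a collagen. In edgeR 987 of 18864 genes had an unadjusted p-value under 0.05. The 4 collagens at that unadjusted threshold became 1 with the filter set to a mean of 50 counts, which left 30 collagens, and 2 to 11 when each pool was left out. The fibrillar median of 0.57 ran from 0.23 to 1.36 and the FACIT median of 0.56 from 0.14 to 1.37 across those fits. The median of the 3 transmembrane genes, 0.87, was -0.74 under that filter, which left 1 gene, 0.14 with voom weights, and -0.068 to 1.41 across the fits that left out a pool.

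Of 441 alternatives for 32 named collagens, 419 kept their direction and side of the threshold and 22 changed sign, in 12 genes. COL4A2 was -0.16 with voom weights, COL4A4 -0.10, and col4a3 0.02 with the filter set to a mean of 50 counts. When each pool was left out, COL1A2 ran from -0.21 to 1.52, col1a1a from -0.20 to 1.72, col5a3a from -0.61 to 0.41, COL11A2 from -0.82 to 2.47, COL4A2 from -0.14 to 0.33, COL4A4 from -1.40 to 0.90, col4a3 from -1.93 to 0.57, col4a5 from -0.27 to 0.79, col18a1b from -0.008 to 0.85, COL6A3 from -0.012 to 0.76, col17a1b from -1.66 to 0.17 and col23a1b from -0.068 to 1.41. The cause was not tested. Same-numbered pools had correlations of 0.094, -0.364 and 0.456 of their deviations. No correlations of differently numbered pools were set beside them, so these values cannot decide whether the number pairs the pools. With the replicate block 0 collagens passed, 3 had an unadjusted p-value under 0.05 against 4.77% of all genes, the median of all collagens was 0.67 and COL4A4 was -0.63. Genes with under 20 counts in a library, such as col21a1, limit what a difference can show.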
